A study of Mus musculus with 12 samples.

Results

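The transcription factors of the TCF/LEF family, their coactivator beta-catenin and the complex that degrades it were followed in a mouse breast tumour line that carried a dominant negative TCF4 construct. The members are 10 genes chosen by symbol, out of 55492 features in the count table: the TCF/LEF genes Tcf7l2, Tcf7, Tcf7l1 and Lef1, the beta-catenin gene Ctnnb1, its coactivators Bcl9 and Bcl9l, and the destruction complex genes Apc, Axin1 and Gsk3b. Total RNA was sequenced in 12 libraries, 3 in each of 4 groups of CCN6KOT cells, a line whose name gives a CCN6 knockout and which the labels call a spindle metaplastic breast cancer. DNTCF4_EZH2 cells carried the DNTCF4 construct with EZH2, the methyltransferase of Polycomb repressive complex PRC2. DNTCF4_SET cells carried DNTCF4 with a construct labelled SET, an abbreviation that the labels do not expand. DNTCF4 cells carried DNTCF4 with an empty vector, and Vector cells carried the control lentivirus, whose prefix PPGS is not expanded either. All groups shared the line, its medium with serum and puromycin selection after lentiviral transduction. Neither the labels nor the design text give the driver of the CCN6 deletion, the number of clones, or the species and sequence of the constructs. They do not say either that the 3 libraries of each group stem from separate cultures, so p-values measure the spread between these libraries.

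In the canonical Wnt pathway, APC and AXIN1 hold beta-catenin while the kinase GSK3B phosphorylates it, and the marked protein is ubiquitinated and destroyed. A Wnt signal stops this, and beta-catenin then reaches TCF/LEF factors on DNA, where it displaces TLE corepressors and recruits BCL9 or BCL9L and, through them, Pygopus proteins. Dominant negative TCFs classically lack the beta-catenin binding domain at their start and keep the DNA-binding HMG box. The protein called TCF4 in Wnt work is encoded by Tcf7l2, while the mouse gene with the symbol Tcf4 encodes an unrelated E-protein. TCF7L1 acts mostly as a repressor, TCF7 and LEF1 more often as activators, and LEF1 is itself often a Wnt target.

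The 4 TCF/LEF genes are close relatives, and their most alike coding stretch is shown because reads from it are the ones most likely to be placed on the wrong family member. The lines give 90 bases of coding sequence from GENCODE transcripts of GRCm38, 5′ to 3′, with bases that are identical in all 4 genes in capitals.
Tcf7l2: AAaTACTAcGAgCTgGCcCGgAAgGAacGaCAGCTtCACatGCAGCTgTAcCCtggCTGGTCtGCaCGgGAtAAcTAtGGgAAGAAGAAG
Tcf7: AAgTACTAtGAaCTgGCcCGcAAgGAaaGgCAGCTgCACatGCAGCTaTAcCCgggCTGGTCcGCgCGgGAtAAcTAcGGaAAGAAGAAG
Tcf7l1: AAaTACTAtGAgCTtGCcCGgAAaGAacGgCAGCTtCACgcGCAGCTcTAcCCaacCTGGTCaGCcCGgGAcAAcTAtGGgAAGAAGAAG
Lef1: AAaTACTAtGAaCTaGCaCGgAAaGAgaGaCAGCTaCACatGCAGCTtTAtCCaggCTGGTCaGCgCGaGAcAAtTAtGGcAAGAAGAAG
In this stretch 65 of 90 bases were the same in all 4, and identity to Tcf7l2 was 85.6% for Tcf7, 85.6% for Tcf7l1 and 81.1% for Lef1. The differences were scattered, and none of the 9270 words of 50 bases in the annotated Tcf7l2 transcripts occurred in transcripts of Tcf7, Tcf7l1 or Lef1. The same held for the 2575 words of Tcf7, the 3966 of Tcf7l1 and the 8876 of Lef1, although 41 of the Lef1 words occurred in genes outside the family. The start of the Tcf7l2 coding sequence, where dominant negative forms are classically cut, is given with its ATG in capitals.
Tcf7l2 coding start: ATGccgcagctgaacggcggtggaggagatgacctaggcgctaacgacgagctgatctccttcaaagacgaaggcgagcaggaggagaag
The labels do not say what the construct of this study lacks, and a count summed over a gene does not tell a construct's transcript from the cell's own.

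Library totals ran from 23597545 to 33999982 counts, and 15052 genes passed the filter on low counts, 9 of the 10 members among them. Lef1 did not pass. Levels are library-scaled counts (CPM, with TMM factors), and a gene with no count in a library lies under 0.0879 to 0.126 CPM, from 3 counts. The spindle label was set against marker lists. Of 11 mesenchymal markers, 10 averaged at least 1 CPM in every group, and the eleventh, Twist1, had 0 counts in all 12 libraries. Their summed level ran from 6360 to 6500 CPM in DNTCF4_EZH2, 5860 to 6310 in DNTCF4_SET, 4990 to 5520 in DNTCF4 and 11400 to 12300 in Vector libraries. Fn1, the fibronectin gene, carried most of it, at 3860 ± 263 CPM in DNTCF4 and 8720 ± 344 CPM in Vector (SD, n = 3 each). Of the 10 tested, 3 were called higher in DNTCF4 than in Vector and 6 lower, by the edgeR test described below. This stands beside 29.5% and 28% of all genes tested. The higher ones were Prrx1 (87.4 CPM in DNTCF4, 19.8 in Vector), Zeb1 and Zeb2. The 11 epithelial markers summed to between 340 and 385 CPM in the 12 libraries, mostly from Krt18 and Krt8, and Epcam averaged under 1 CPM in each group. The 8 leukocyte markers summed to 66.8 to 71.8, 59.7 to 68.6, 45 to 66.2 and 53.6 to 58 CPM in the same order of groups, almost all from Cd68, and the defining marker Ptprc averaged 0.0206, 0.0602, 0 and 0.397 CPM. The 5 endothelial markers summed to at most 4.51 CPM in any library. The part of these lists in the results was not tested. In bulk RNA, fewer cells of a kind and less RNA per cell cannot be told apart. Replicate 1 of DNTCF4 stood apart from its group, at a chi-square of 19 and 12.2 per degree of freedom against replicates 2 and 3, which differed from each other by 3.17. In DNTCF4_EZH2, replicates 1 and 2 differed by 14.9, and the other pairs within groups lay between 2.55 and 5.88. Genes of olfactory and vomeronasal receptors, which a tumour line is not thought to use, took 59.7, 56.7 and 57.3 CPM in DNTCF4_EZH2, 61.1, 90.1 and 70.5 in DNTCF4_SET, 54.4, 46 and 45.9 in DNTCF4, and 95.3, 291 and 145 in Vector replicates 1, 2 and 3. The number of such genes with at least 1 count was 241 to 311, 325 to 472, 69 to 81 and 550 to 774 in the same order of groups.

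The Ezh2 row, where reads of an EZH2 construct would count if it resembles the mouse gene, averaged 450 ± 20.4 CPM in DNTCF4_EZH2, 545 ± 33.1 in DNTCF4_SET, 65.4 ± 3.1 in DNTCF4 and 57.8 ± 1.52 in Vector libraries (SD, n = 3 each). It was thus high in both lines that carried a second construct, while the row of the gene Set averaged 535, 550, 616 and 686 CPM.

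DNTCF4 against Vector sets cells with the TCF4 construct against control cells. Tcf7l2, Ctnnb1, Gsk3b, Tcf7l1 and Tcf7 were higher in DNTCF4 than in Vector cells, Bcl9 and Bcl9l were lower, and Apc and Axin1 did not pass the test. The quasi-likelihood test of edgeR, two-sided, adjusted by Benjamini-Hochberg over the 15052 genes and read at 0.05, called 5 of 9 members higher and 2 lower. The background was 29.5% of all genes tested called higher and 28% lower, and 57.5% called in either direction, so a call alone is common in this comparison. For 5 members the libraries of the groups did not overlap, as for 59.3% of all genes. The members' median log2 fold change was 0.23, against 0.01 over all genes, and the median size of the change over all genes was 0.27.

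**Figure D1:**
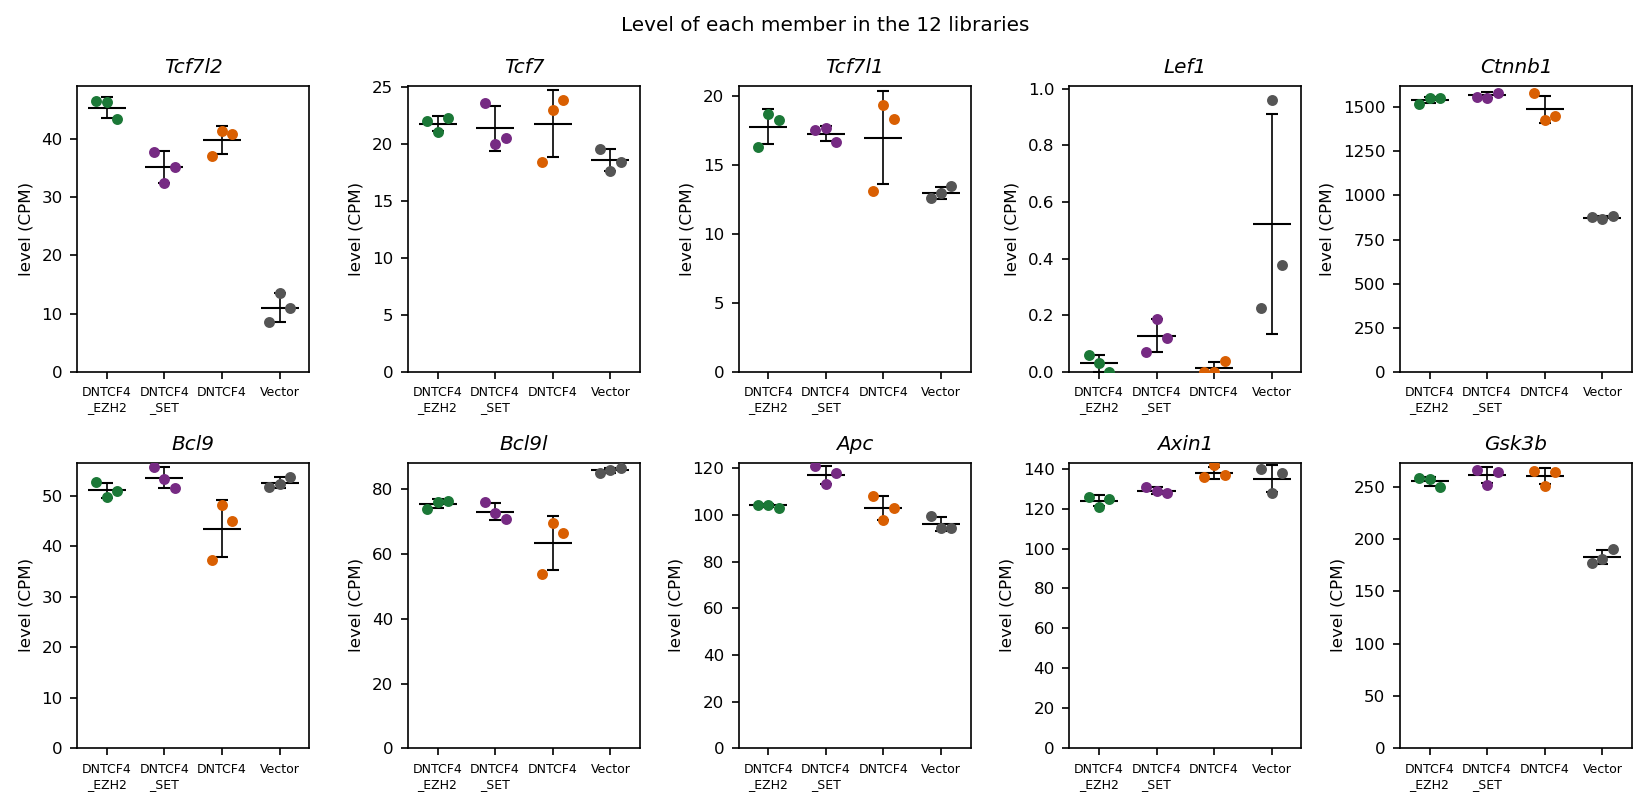
Level of each of the 10 genes in CPM (linear axes from 0) in each of the 12 libraries, grouped as DNTCF4_EZH2, DNTCF4_SET, DNTCF4 and Vector. Points are libraries, horizontal bars are group means and error bars are SD (n = 3). Tcf7l2, Ctnnb1 and Gsk3b are higher in all 9 libraries with DNTCF4 than in the Vector libraries, and Lef1 stays under 1 CPM everywhere.

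Tcf7l2 (chromosome 19, 55741820 to 55933654) had 37, 41.4 and 40.9 CPM in DNTCF4 replicates 1, 2 and 3, against 8.62, 13.6 and 10.9 CPM in Vector. Each DNTCF4 library lay far above each Vector library. The fold change was 3.61 (log2 1.85, SE 0.11, adjusted p = 1.34e-09). Reads of the DNTCF4 construct may be counted on this gene, so the rise, and the shares and sums that include Tcf7l2, need not be the cell's own transcript. Among Vector libraries the order of Tcf7l2, lowest in replicate 1 and highest in replicate 2, was that of the receptor genes above, and without Vector replicate 2 the log2 fold change was 2.04. The libraries with added constructs had 46.6, 46.3 and 43.4 CPM in DNTCF4_EZH2 and 37.8, 32.5 and 35.2 CPM in DNTCF4_SET. All 9 libraries with DNTCF4 were thus above the 3 Vector libraries, at log2 fold changes over Vector of 2.04 in DNTCF4_EZH2 (SE 0.11, adjusted p = 3.37e-10) and 1.67 in DNTCF4_SET (SE 0.11, adjusted p = 4.35e-09). The 3 contrasts with Vector share the Vector libraries, so they are not separate evidence of the direction.

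Tcf7 (chromosome 11, 52252371 to 52283014) had 18.4, 23 and 23.9 CPM in DNTCF4, against 19.6, 17.6 and 18.4 CPM in Vector. Replicate 1 of DNTCF4 fell within the Vector range, and the other DNTCF4 libraries lay above it. The log2 fold change was 0.23 (SE 0.09, adjusted p = 0.0375). This call was lost on leaving out Vector replicate 2 or 3 or DNTCF4 replicate 2 or 3 (log2 0.16 to 0.22, adjusted p 0.0964 to 0.167), with limma on the deposited log2 values (0.13, adjusted p = 0.0543) and with the 6 compared libraries alone (adjusted p = 0.0859), and the value without DNTCF4 replicate 1 was 0.34 (adjusted p = 0.000488). DNTCF4_EZH2 libraries had 22, 21.1 and 22.3 CPM and DNTCF4_SET libraries 23.6, 20 and 20.5 CPM, all above the Vector libraries. Over Vector, the log2 fold change was 0.23 in DNTCF4_EZH2 (adjusted p = 0.0374, lost on leaving out any library but Vector replicate 1) and 0.2 in DNTCF4_SET, where it did not pass (adjusted p = 0.0665), but did with no filter on low counts (adjusted p = 0.0234) and with the 6 compared libraries alone (0.0146).

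Tcf7l1 (chromosome 6, 72626378 to 72789254) had 13.1, 19.4 and 18.4 CPM in DNTCF4, against 12.6, 13 and 13.5 CPM in Vector. Here too DNTCF4 replicate 1 was the low library of its group and lay inside the Vector range. The log2 fold change was 0.39 (SE 0.11, adjusted p = 0.00767), and 0.54 without that library (adjusted p = 2.28e-06). With 16.3, 18.7 and 18.3 CPM in DNTCF4_EZH2 and 17.6, 17.7 and 16.7 CPM in DNTCF4_SET, both further lines lay above every Vector library. Their log2 fold changes over Vector were 0.45 (SE 0.11, adjusted p = 0.0027) and 0.41 (SE 0.11, adjusted p = 0.00517), for DNTCF4_EZH2 and DNTCF4_SET in that order.

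Lef1 (chromosome 3, 131110471 to 131224356) was close to undetected. DNTCF4_EZH2 libraries had 2, 1 and 0 counts, DNTCF4_SET libraries 2, 5 and 4, DNTCF4 libraries 0, 0 and 1, and Vector libraries 6, 26 and 9 counts. Every Vector library thus had more Lef1 counts than any library with DNTCF4, yet none reached 1 CPM. With 1 count in DNTCF4 and 41 in Vector, the level in Vector was 45 times that in DNTCF4, with an exact 95% interval of 7.63 to 1820 that covers counting error alone, and 25.3 times without Vector replicate 2 (3.89 to 1060). DNTCF4_SET, with 11 counts, stood 10.7 times above DNTCF4 (1.55 to 460), while Vector stood 4.21 times above DNTCF4_SET (2.13 to 9.08), or 2.37 times without Vector replicate 2 (1.02 to 5.7). In a fit with no filter on low counts, over 31355 genes, Lef1 was called lower in DNTCF4 than in Vector (adjusted p = 1.37e-06), in DNTCF4_EZH2 than in Vector (adjusted p = 1.44e-05) and in DNTCF4_SET than in Vector (adjusted p = 0.0113), while DNTCF4_SET against DNTCF4 gave an adjusted p of 0.057. The number of olfactory and vomeronasal receptor genes with a count ran in the same order of groups as Lef1, highest in Vector and lowest in DNTCF4, and within Vector both were highest in replicate 2. Ptprc, another gene of lymphoid cells, had 0 counts in DNTCF4 and 7, 16 and 8 in Vector. The part of these low counts in the Lef1 difference was not tested.

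Per kilobase of merged exons, the TCF/LEF genes together had 18 ± 0.136 CPM in DNTCF4_EZH2, 16.6 ± 1.07 in DNTCF4_SET, 17.2 ± 2.23 in DNTCF4 and 11.7 ± 0.0319 in Vector (SD, n = 3 each). The share of Tcf7l2 in that sum was 28.7% ± 1.27 in DNTCF4_EZH2, 24.2% ± 0.782 in DNTCF4_SET, 26.6% ± 2.02 in DNTCF4 and 10.7% ± 2.41 in Vector libraries. Tcf7 held 46.1%, 49%, 48.3% and 60.4% in the same order, Tcf7l1 25.2%, 26.7%, 25.1% and 28.4%, and Lef1 0.0193%, 0.0888%, 0.00752% and 0.507%. So the Tcf7l2 share was higher, and the Tcf7 share lower, in every library with DNTCF4 than in any Vector library. With the length of the longest transcript in place of merged exons, Tcf7l2 held 45.4%, 39.7%, 42.8% and 19.8% and Tcf7 32.8%, 36.2%, 35.1% and 50.5%. Which of the pair is the more abundant in the 3 lines with DNTCF4 therefore turned with the length used, while Tcf7 was ahead in Vector under both. The shares carry no test.

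**Figure D2:**
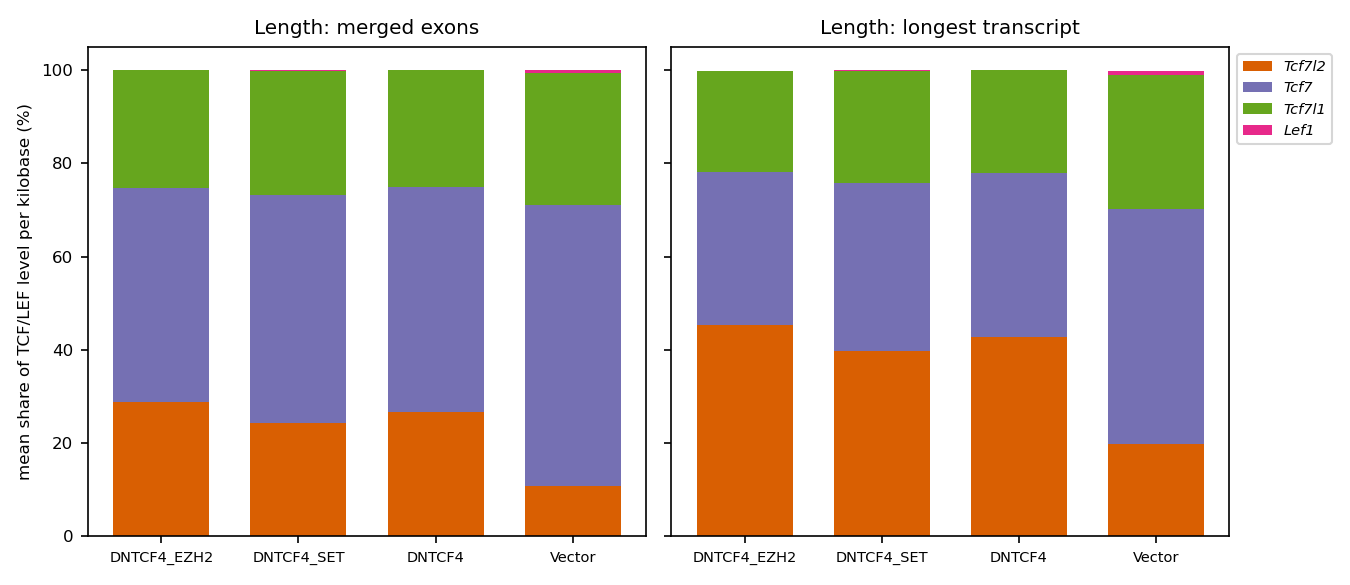
Mean share (%, n = 3 libraries) of Tcf7l2, Tcf7, Tcf7l1 and Lef1 in their summed CPM per kilobase, for DNTCF4_EZH2, DNTCF4_SET, DNTCF4 and Vector, with merged exons (left) or the longest transcript (right) as gene length. The Tcf7l2 share is 10.7% in Vector and 24.2% to 28.7% in the lines with DNTCF4 on merged exons, and the order of Tcf7l2 and Tcf7 in those lines turns with the length.

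Genes whose symbols can be mistaken for family members behaved otherwise. Tcf4 averaged 73.5 ± 2.41 CPM in DNTCF4 and 70.8 ± 3.35 CPM in Vector (SD, n = 3 each), at a log2 fold change of 0.05 (95% interval -0.04 to 0.14), and passed the test in DNTCF4_SET against Vector alone (log2 0.13, adjusted p = 0.0133). Tcf3, an E-protein gene whose symbol was once used for TCF7L1, averaged 101 ± 15.3 CPM in DNTCF4 and 113 ± 3.51 CPM in Vector and passed in none of the 6 comparisons.

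Ctnnb1 (chromosome 9, 120929216 to 120960507) had 1580, 1430 and 1450 CPM in DNTCF4, against 878, 865 and 882 CPM in Vector. The groups were far apart, and the Vector libraries differed by little. Its fold change was 1.7 (log2 0.77, SE 0.036, adjusted p = 7.7e-11). The other lines lay at the DNTCF4 level, with 1520, 1550 and 1550 CPM in DNTCF4_EZH2 and 1560, 1550 and 1580 CPM in DNTCF4_SET. Their log2 fold changes over Vector were 0.82 (adjusted p = 3.23e-11) and 0.84 (adjusted p = 2.2e-11). The locus overlaps Ulk4 and an antisense transcript on the other strand, and the labels do not say whether counting used strand.

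The coactivators moved the other way. Bcl9 (chromosome 3, 97203662 to 97297917), which bridges beta-catenin to Pygopus proteins, had 37.3, 48.2 and 45 CPM in DNTCF4, against 51.7, 52.3 and 53.8 CPM in Vector. All DNTCF4 libraries were below all Vector libraries, with replicate 1 the lowest. The log2 fold change was -0.27 (SE 0.071, adjusted p = 0.00415), and -0.17 without DNTCF4 replicate 1 (adjusted p = 0.0032). Bcl9l (chromosome 9, 44482825 to 44511896), its paralog, had 53.9, 69.7 and 66.4 CPM in DNTCF4, against 85.1, 85.8 and 86.6 CPM in Vector. Again the groups did not overlap and DNTCF4 replicate 1 was the lowest. The log2 fold change was -0.44 (SE 0.069, adjusted p = 6.33e-05), and -0.33 without DNTCF4 replicate 1 (adjusted p = 3.08e-07).

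Of the destruction complex members, the kinase gene was the one that passed. Gsk3b (chromosome 16, 38089001 to 38246084) had 265, 251 and 264 CPM in DNTCF4, against 177, 181 and 190 CPM in Vector. Every DNTCF4 library was above every Vector library, at a fold change of 1.42 (log2 0.51, SE 0.038, adjusted p = 2.17e-08). Apc (chromosome 18, 34220924 to 34322552), the scaffold named for adenomatous polyposis coli, had 108, 97.9 and 103 CPM in DNTCF4, against 99.3, 94.2 and 94.4 CPM in Vector. These ranges overlapped, and the log2 fold change of 0.1 lay at the threshold (95% interval 0.01 to 0.19, adjusted p = 0.0503), which it passed on leaving out Vector replicate 1 (0.12, adjusted p = 0.0489) or DNTCF4 replicate 2 (0.14, adjusted p = 0.0107). Axin1 (chromosome 17, 26138688 to 26195811), the other scaffold, had 136, 142 and 137 CPM in DNTCF4, against 140, 128 and 138 CPM in Vector. Its ranges overlapped too, with a log2 fold change of 0.03 (95% interval -0.05 to 0.12, adjusted p = 0.516).

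**Figure D3:**
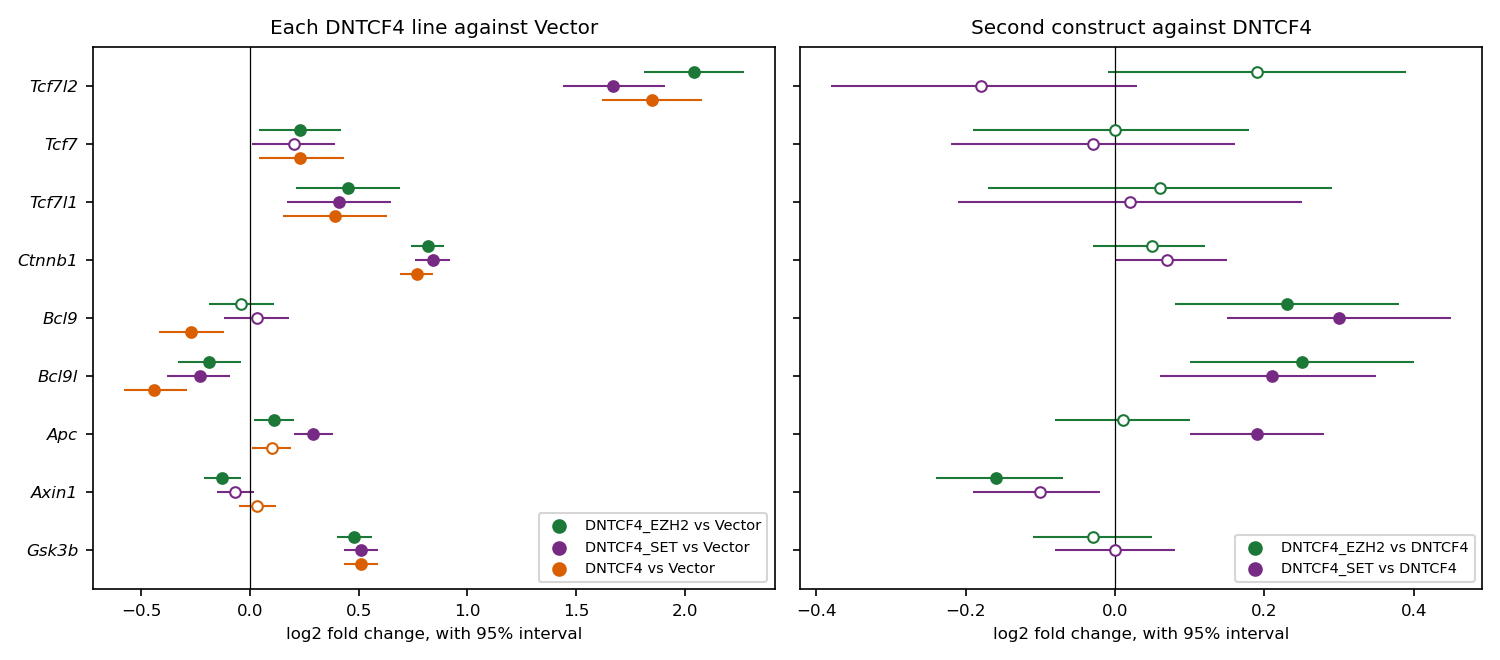
Log2 fold change of the 9 genes tested, with its 95% interval, for each line with DNTCF4 over Vector (left) and for DNTCF4_EZH2 and DNTCF4_SET over DNTCF4 (right). Filled points have an adjusted p under 0.05 and open points do not. On the left Tcf7l2 stands furthest from 0, at 1.67 to 2.04. On the right Bcl9 and Bcl9l are above 0 with either second construct, and the axis is narrower.

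The lines with a second construct ask whether EZH2 or SET shifts these transcripts back. Both contrasts share the 3 DNTCF4 libraries, with each other and with DNTCF4 against Vector. A low level in those libraries enters the fall from Vector and both rises, so these are not separate evidence of a return. DNTCF4_EZH2 against DNTCF4 gave 2 of 9 members higher and 1 lower, against a background of 13% of all genes called higher and 12.5% lower. DNTCF4_SET against DNTCF4 gave 3 higher and 0 lower (background 12.7% and 13.3%). The groups did not overlap for 4 members with EZH2 and 4 with SET, against 39.1% and 37.2% of all genes. The members' median log2 fold change was 0.05 with EZH2 and 0.02 with SET, against 0 over all genes in both.

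Bcl9 and Bcl9l were higher with either construct than in DNTCF4. Bcl9 had 52.7, 49.7 and 51 CPM in DNTCF4_EZH2 and 55.7, 53.4 and 51.6 CPM in DNTCF4_SET. Both sets lay above the 3 DNTCF4 libraries and around the Vector level, at log2 fold changes over DNTCF4 of 0.23 with EZH2 (SE 0.07, adjusted p = 0.0249) and 0.3 with SET (SE 0.07, adjusted p = 0.006). Over Vector, Bcl9 stood at -0.04 with EZH2 (95% interval -0.19 to 0.11) and 0.03 with SET (-0.12 to 0.18), on the log2 scale, and did not pass. Bcl9l had 73.9, 76.1 and 76.3 CPM in DNTCF4_EZH2 and 76.1, 72.5 and 70.8 CPM in DNTCF4_SET, between DNTCF4 and Vector. Its log2 fold change over DNTCF4 was 0.25 with EZH2 (SE 0.069, adjusted p = 0.0141) and 0.21 with SET (SE 0.069, adjusted p = 0.0394), and over Vector -0.19 (adjusted p = 0.0289) and -0.23 (adjusted p = 0.00894). DNTCF4 replicate 1, the library that stands apart, was the lowest of the 12 for both genes. Without it, Bcl9 was still called, at 0.13 with EZH2 and 0.2 with SET, as was Bcl9l, at 0.15 and 0.1 (adjusted p = 0.0483 with SET). Leaving out other libraries did end calls: that of Bcl9 with EZH2 against DNTCF4 without DNTCF4_EZH2 replicate 1 (adjusted p = 0.0925) or 3 (0.0659), that of Bcl9l with EZH2 without DNTCF4_EZH2 replicate 3 (0.0507), and that of Bcl9l with SET without any 1 of the DNTCF4_SET libraries (0.0568 to 0.136). With the 6 compared libraries alone, Bcl9 with EZH2 (adjusted p = 0.0956) and Bcl9l with EZH2 (0.0714) and with SET (0.135) were not called. The call of Bcl9l in DNTCF4_EZH2 against Vector ended without Vector replicate 2 or 3 or DNTCF4_EZH2 replicate 1 or 2 (0.0582 to 0.0772).

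The remaining calls were small and touched the scaffolds. Axin1 had 126, 121 and 125 CPM in DNTCF4_EZH2, below all DNTCF4 libraries, at a log2 fold change of -0.16 (SE 0.04, adjusted p = 0.0082), and below all Vector libraries at -0.13 (adjusted p = 0.0127, not called without DNTCF4_EZH2 replicate 2, adjusted p = 0.0622). In DNTCF4_SET it had 131, 129 and 128 CPM, at -0.1 against DNTCF4, which did not pass (adjusted p = 0.0784; without DNTCF4 replicate 1 it was -0.11 and passed, adjusted p = 0.0287), and at -0.07 against Vector (adjusted p = 0.159, but -0.11 with 0.0322 without Vector replicate 2). Apc had 121, 113 and 118 CPM in DNTCF4_SET, above all DNTCF4 libraries, at 0.19 (SE 0.042, adjusted p = 0.00404), and above all Vector libraries at 0.29 (adjusted p = 2.84e-05). With EZH2 it had 104, 104 and 103 CPM, within the DNTCF4 range, at 0.01 (95% interval -0.08 to 0.1). Over Vector this was 0.11, and that call (adjusted p = 0.0367) was lost on leaving out Vector replicate 2 or 3 or any DNTCF4_EZH2 library, and with no filter on low counts (adjusted p = 0.0509).

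Tcf7l2, Ctnnb1 and Gsk3b, the members furthest above Vector, did not pass against DNTCF4 with either construct in the fit of filtered genes. Ctnnb1 differed from DNTCF4 by 0.05 with EZH2 (95% interval -0.03 to 0.12) and 0.07 with SET (0 to 0.15), on the log2 scale, and without DNTCF4 replicate 1, its highest library there, by 0.09 (adjusted p = 0.0189) and 0.12 (adjusted p = 0.00367), which passed. DESeq2 called it with SET as well (0.09, adjusted p = 0.0394). Gsk3b had 258, 257 and 250 CPM in DNTCF4_EZH2 and 266, 252 and 264 CPM in DNTCF4_SET. Its difference from DNTCF4 was -0.03 with EZH2 (-0.11 to 0.05) and 0 with SET (-0.08 to 0.08), and over Vector 0.48 (adjusted p = 3.97e-08) and 0.51 (adjusted p = 1.84e-08). Tcf7l2 was 0.19 above DNTCF4 with EZH2 (-0.01 to 0.39) and 0.18 below with SET, a log2 fold change of -0.18 (-0.38 to 0.03). Neither passed, although both did with no filter on low counts (adjusted p = 0.015 with EZH2 and 0.0297 with SET), and all 3 DNTCF4_EZH2 libraries were above all 3 DNTCF4 libraries. Tcf7 and Tcf7l1 differed from DNTCF4 by at most 0.06 with either construct, with 95% intervals between -0.22 and 0.29.

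The lines with a second construct differed from each other on 2 members, 1 higher and 1 lower in DNTCF4_EZH2. This stands against 3% of all genes called higher and 2.17% lower (5.16% in all). The Ezh2 row itself averaged 450 CPM in DNTCF4_EZH2 and 545 in DNTCF4_SET, so the contrast is not one of high against low Ezh2 counts. For 3 members the groups did not overlap, against 31.8% of all genes. Tcf7l2 was higher in DNTCF4_EZH2 than in DNTCF4_SET, at 43.4 to 46.6 CPM against 32.5 to 37.8 CPM with no overlap and a log2 fold change of 0.37 (SE 0.095, adjusted p = 0.035). Apc was lower in DNTCF4_EZH2, at 103 to 104 CPM against 113 to 121 CPM in DNTCF4_SET, again with no overlap, and a log2 fold change of -0.18 (SE 0.042, adjusted p = 0.02). The Tcf7l2 call was lost on leaving out any of the 6 libraries (log2 0.32 to 0.42, adjusted p 0.0514 to 0.156), and the Apc call on leaving out any but DNTCF4_SET replicate 2. For the other 7 members tested, the difference lay between -0.07 and 0.05. Here too, reads of the DNTCF4 construct may be counted on Tcf7l2.

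Against Vector, DNTCF4_EZH2 had 6 members higher and 2 lower of 9 (background 28.7% and 29%), and DNTCF4_SET 5 higher and 1 lower (28.1% and 29.9%). The groups did not overlap for 8 members in DNTCF4_EZH2 and 7 in DNTCF4_SET, against 68.1% and 66.1% of all genes. The members higher in all 3 lines with DNTCF4 were Tcf7l2, Tcf7l1, Ctnnb1 and Gsk3b, and Bcl9l was lower in all 3. Since these comparisons share Vector libraries, the overlap carries no test.

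Levels per kilobase of merged exons put Ctnnb1 first in each group, at 297 CPM per kilobase in DNTCF4_EZH2, 302 in DNTCF4_SET, 286 in DNTCF4 and 169 in Vector. Axin1 followed at 32.4, 33.7, 36.2 and 35.4, then Gsk3b at 26, 26.5, 26.5 and 18.6, with no overlap between these 3 neighbours in any group. Bcl9l and Tcf7 came next, at 7.92 ± 1.04 and 8.3 ± 1.12 CPM per kilobase in DNTCF4, where their ranges overlapped, and at 10.7 ± 0.0941 and 7.07 ± 0.382 in Vector, where they did not. Apc and Bcl9 stood at 6.4 and 5.15 in DNTCF4 and at 5.96 and 6.22 in Vector, where they overlapped. Tcf7l1 had 4.33 CPM per kilobase in DNTCF4 and 3.32 in Vector, and Tcf7l2 4.53 in DNTCF4 and 1.26 in Vector. The last pair overlapped in DNTCF4, and in Vector Tcf7l1 was the higher with no overlap. With the longest transcript as length, Tcf7l2 stood at 10.7 CPM per kilobase in DNTCF4 and 2.96 in Vector, against 5.59 and 4.28 for Tcf7l1. Lef1 was last in each group, at most at 0.0593 CPM per kilobase.

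Beyond the members, 47 further genes of the pathway were set in 3 lists, and 46 were tested. DNTCF4 against Vector gave 22 higher and 9 lower, with a median log2 fold change of 0.12 against 0.01 over all genes. With the 6 compared libraries alone, 16 were higher and 9 lower. Of 15 further genes of the destruction complex and its regulators, 12 were higher and 1 was lower (median 0.27), beside 29.5% and 28% of all genes. In DNTCF4_EZH2 against Vector, 7 of the 15 were higher and 2 lower (median 0.15), beside 28.7% and 29%. In DNTCF4_SET against Vector, 9 were higher and 1 was lower (median 0.16), beside 28.1% and 29.9%. Tnks2, a tankyrase that marks AXIN for degradation, averaged 438 ± 50.3 CPM in DNTCF4 and 274 ± 3.27 CPM in Vector (log2 0.67, adjusted p = 1.05e-07). Dvl1, a dishevelled protein that carries the Wnt signal to the complex, averaged 244 ± 22.9 CPM in DNTCF4 and 184 ± 5.92 CPM in Vector (log2 0.41, adjusted p = 2.91e-05). Btrc, the F-box protein that recognises phosphorylated beta-catenin, averaged 29.9 ± 0.656 CPM in DNTCF4 and 24 ± 0.621 CPM in Vector (log2 0.32, adjusted p = 4.58e-05). These are activators and inhibitors of the pathway alike.

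The one gene of that list that fell in DNTCF4 against Vector was Axin2, a scaffold and feedback target of beta-catenin and TCF. It had 0.762, 0.764 and 0.952 CPM in DNTCF4, against 2.67, 2.77 and 3.52 CPM in Vector. The groups did not overlap, and the fold was 3.6 lower in DNTCF4 (log2 -1.85, SE 0.19, adjusted p = 8.53e-07). It averaged 0.82 CPM in DNTCF4_EZH2 and 0.906 CPM in DNTCF4_SET, at log2 differences from DNTCF4 of -0.01 (95% interval -0.48 to 0.46) and 0.13 (-0.34 to 0.6), so its level with a second construct was not told apart from DNTCF4. In DNTCF4 against Vector, Axin2 was thus lower (log2 -1.85) while Axin1 was not told apart from Vector (0.03). In DNTCF4_EZH2 against Vector both were called lower, at -1.86 for Axin2 and -0.13 for Axin1.

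The RNA of 8 usual feedback and target genes of the pathway was also followed as a readout list. Lgr5, Nkd1 and Rnf43 were too low to test. The activity of the pathway itself was not measured. Of the 5 tested, Axin2, Notum, Znrf3 and Ccnd1 were lower in DNTCF4 than in Vector, beside 28% of all genes. Sp5 did not pass (log2 -0.33). Notum, which inactivates Wnt ligands, had 2.02, 2.77 and 2.75 CPM in DNTCF4, against 16.8, 17.9 and 17.6 CPM in Vector (log2 -2.79, adjusted p = 3.13e-11). Ccnd1, the cyclin D1 gene, averaged 165 ± 5.76 CPM in DNTCF4 and 336 ± 10 CPM in Vector (log2 -1.03, adjusted p = 6.34e-12). Znrf3, a ligase that removes Wnt receptors, stood at 26.1 ± 1.23 CPM in DNTCF4 and 35.3 ± 1.79 CPM in Vector (log2 -0.43, adjusted p = 1.31e-05). With EZH2, Notum (0.83) and Ccnd1 (0.2) were higher than in DNTCF4 on the log2 scale, and with SET Notum was (0.56). All 4 remained lower than in Vector with either construct. Lgr5 had 0 counts in DNTCF4 and 7, 23 and 3 in Vector, with the same high library as Lef1. Nkd1 and Rnf43 had more counts in DNTCF4 than in Vector, at 12 against 3 and 17 against 12, summed over libraries. No test is given for these low counts.

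Of 24 nuclear cofactors, 9 were higher and 7 lower in DNTCF4 than in Vector (median log2 0.02), near the shares of all genes (29.5% and 28%). Pygo1, a Pygopus protein of the kind that BCL9 recruits, had 2.48, 2.01 and 2.16 CPM in DNTCF4, against 0.264, 0.998 and 0.545 CPM in Vector (log2 1.86, adjusted p = 4.56e-05). As with Tcf7l2, the DNTCF4 libraries were all above the Vector libraries, and Vector replicate 2 was the highest of its group. Pygo2, named after its values were seen, was far more abundant and did not pass, at 64.7 ± 4.77 CPM in DNTCF4 and 66.1 ± 1.16 CPM in Vector (log2 -0.03, 95% interval -0.14 to 0.08). Ldb1, an adaptor of nuclear complexes (log2 0.34, adjusted p = 8.53e-05), and the genes Tle3 (0.31, adjusted p = 0.000124) and Tle6 (0.43, adjusted p = 0.000189) of the TLE family were also higher. That family did not move as a group: Tle2 and Tle4 were higher as well, while Tle1 (-0.23) and Tle5 (-0.3) were lower, these 4 being named after their values were seen. Of 8 cadherins and catenins 7 were tested. Ctnnal1, an alpha-catenin relative, was lower (log2 -0.61, adjusted p = 1.08e-05). Jup, the plakoglobin gene and closest relative of Ctnnb1, was higher, at 49.5 ± 3.85 CPM in DNTCF4 and 44.4 ± 2.55 CPM in Vector (log2 0.16, adjusted p = 0.0353). Its libraries overlapped, with a lowest value of 45.1 CPM in DNTCF4 and a highest of 47.3 CPM in Vector.

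**Figure D4:**
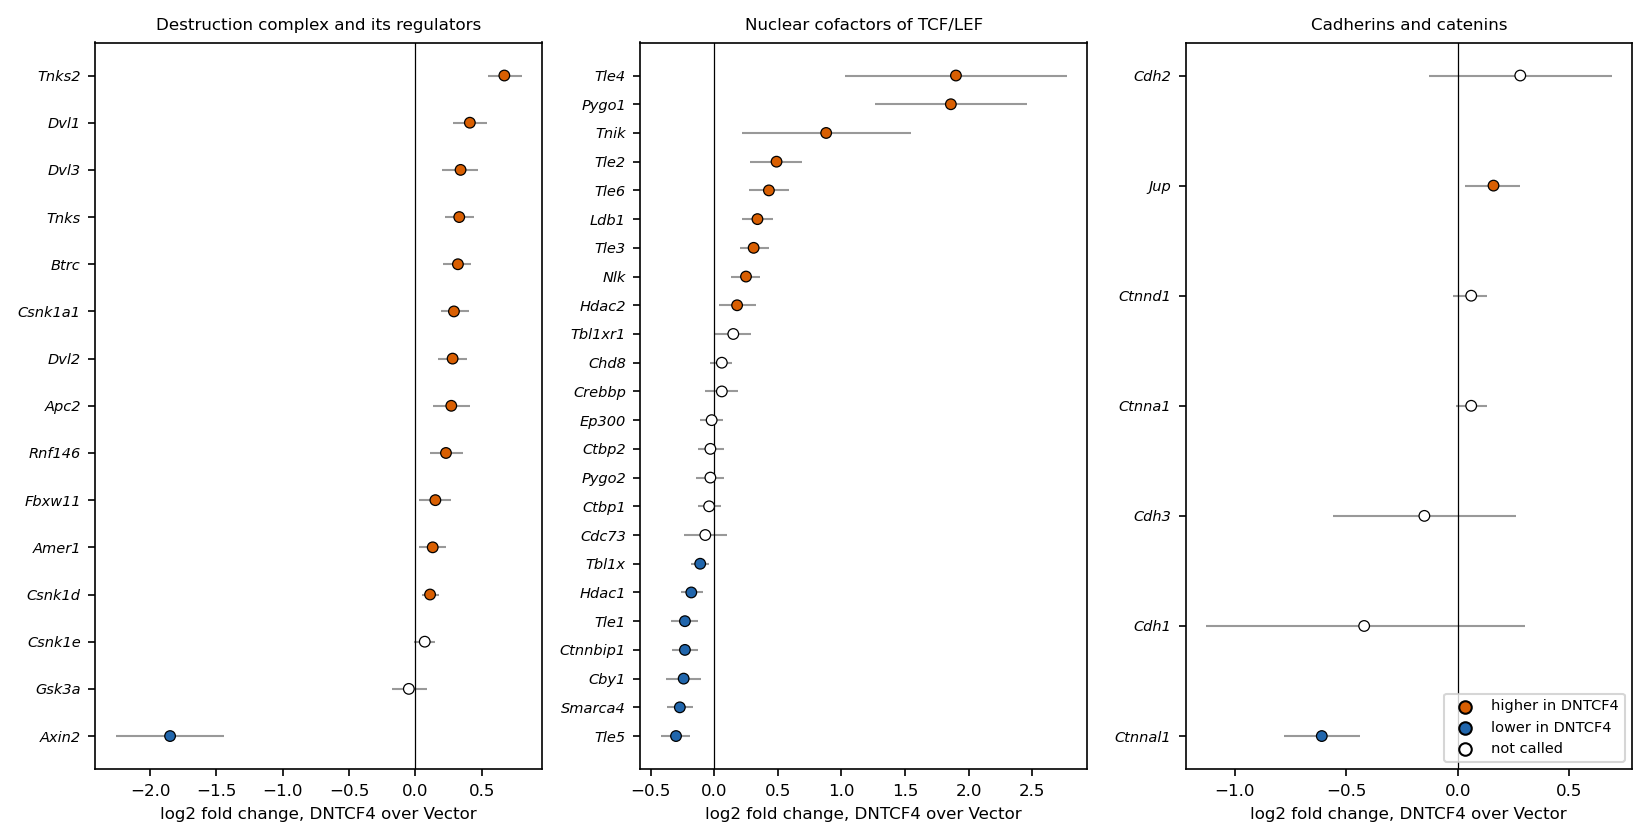
Log2 fold change, DNTCF4 over Vector, with 95% intervals, of the 46 further pathway genes tested, in 3 panels by list and sorted by value. Filled points passed the test (22 higher, 9 lower) and open points did not. In the first panel 12 of 15 genes are higher and Axin2 stands alone at -1.85, while the other panels hold genes on both sides of 0.

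DNTCF4_EZH2 against DNTCF4 gave 5 higher and 4 lower of the 46 further genes, beside 13% and 12.5% of all genes, and 2 lower with DESeq2, with limma and with the 6 compared libraries. Amer1 (log2 -0.27, adjusted p = 0.000599), which binds APC, and Rnf146 (-0.26, adjusted p = 0.00413), the ligase that acts on AXIN marked by tankyrase, were lower. Jup was higher, at 60.6 ± 0.743 CPM in DNTCF4_EZH2 and 49.5 ± 3.85 CPM in DNTCF4 (0.29, adjusted p = 0.00182). Ctnnal1 (0.29) and Cdh3, the P-cadherin gene (0.63), were higher as well. DNTCF4_SET against DNTCF4 gave 8 higher and 5 lower, beside 12.7% and 13.3% of all genes. Rnf146 (-0.33, adjusted p = 0.00064) and Amer1 (-0.2, adjusted p = 0.00621) were lower there too, with Dvl1 (-0.25) and Ldb1 (-0.24). Tnks (0.22), Cdh3 (0.82) and Tnik, a kinase that works with TCF factors (0.98), were higher in DNTCF4_SET. Without DNTCF4 replicate 1 the calls with SET numbered 21. Between DNTCF4_EZH2 and DNTCF4_SET, Dvl1 (0.23), Tle2 (0.36) and Ldb1 (0.2) were higher with EZH2, 3 of 46 beside 5.16% of all genes called in either direction. None was lower, but limma gave 0 higher and 2 lower, the 6 compared libraries 5 of each, and leaving out 1 library left 0 or 1 call.

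The genes whose levels most resembled those of 3 members over the 12 libraries were found among 11703 tested genes, by Pearson's r of log2 CPM and with no test. For Tcf7l2 they were Abtb1 (r = 0.992), Npc1 (0.987), Slc11a1 (0.986), Zfyve27 (0.986) and Npr2 (0.985). Npr2, a receptor of natriuretic peptides, averaged 16.2 CPM in DNTCF4_EZH2, 14.8 in DNTCF4_SET, 14.5 in DNTCF4 and 3.01 in Vector, and Npc1, a cholesterol transporter of the lysosome, averaged 107, 104, 106 and 84.9. For Ctnnb1 they were Serinc5 (0.999), Rnf125 (0.999), Rap1gds1 (0.998), Slc7a2 (0.998) and Tlr2 (0.997). For Tcf7 they were Adcy6 (0.918), Parvb (0.913), Patz1 (0.904), Tusc2 (0.901) and Sfxn3 (0.9). As 9 of the 12 libraries carry DNTCF4 and 3 do not, r includes the step between them, and no r within groups was computed.

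The windows from 250 bases before to 50 after the RefSeq starts on GRCm38.p6 were searched for 2 forms of the TCF/LEF motif, CTTTGAT and CTTTGAA, on both strands. Windows were found for 7 members, and none held either form, while 8.7% of all 32851 windows did. The window of Axin2, the feedback target, held neither form as well. So few members cannot be told apart from that share, and no test was made.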

How the data were processed

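Total RNA of 12 libraries in 4 groups was measured; the titles of the samples gave each group and number. The authors deposited expected counts per gene, estimated reads that are not normalised and were already whole numbers, and regularised log2 values (DESeq2 rlog) for 21754 genes. The submitters' processing notes name RSEM 1.3.3, STAR 2.7.8a, DESeq2, cutadapt 2.3 and FastQC 0.11.8 and the build GRCm38; settings and strandedness are not given in the sources used here. RSEM divides reads among genes that share sequence, so near-identical genes depend on that model. Of the rows, 5 lack a mouse Ensembl gene identifier and, for that reason only, were taken as transgene sequences. Their levels were not examined here.

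Low genes were removed by filterByExpr (count 10, total 15). EdgeR 4.0.16 in R 4.3.3 fitted the 12 libraries together with TMM scaling, 1 mean per group and 8 residual degrees of freedom (biological coefficient of variation 5.17%), and the quasi-likelihood test was applied per contrast, two-sided, with Benjamini-Hochberg adjustment at 0.05. The contrasts were each line with DNTCF4 against Vector, each second construct against DNTCF4, and EZH2 against SET. The test was tried on simulated counts. Lef1, which failed the filter, was compared by summed counts with exact 95% intervals.

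The members, lists and tests were chosen with earlier results of these data known. Named genes are the members, up to 4 called genes with the smallest p in each list, Axin2, the 8 readout genes, Tcf4, Tcf3, the construct genes and the 5 genes most correlated with Tcf7l2, Tcf7 and Ctnnb1, with a mean of at least 1 CPM (log2 CPM with a prior count of 2). Positions come from the GENCODE annotation of GRCm38, which matched 55141 identifiers. Alternatives were DESeq2 1.42.0 and its size factors, limma 3.58.1 on the deposited log2 values, no filter, a replicate block, the 6 compared libraries alone and each library left out.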

Additional observations from a re-analysis of the deposited data

Results flagged for a closer look

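The change against DNTCF4 differed between the second constructs for Tcf7l2 and for Apc. The test is the contrast of DNTCF4_EZH2 with DNTCF4_SET in edgeR's quasi-likelihood fit, already given above. Reads of the DNTCF4 construct may be counted on Tcf7l2, so its difference need not be in the cell's own transcript. For Tcf7l2 the log2 difference was 0.37 (SE 0.095, adjusted p = 0.035), with DNTCF4_EZH2 0.19 above DNTCF4 and DNTCF4_SET at -0.18 against it, neither of which passed alone except with no filter on low counts (adjusted p = 0.015 and 0.0297). The difference was no longer called on leaving out any of the 6 libraries (adjusted p 0.0514 to 0.156). For Apc it was -0.18 (SE 0.042, adjusted p = 0.02), with 0.01 in DNTCF4_EZH2 and 0.19 in DNTCF4_SET, and it was not called on leaving out any library but DNTCF4_SET replicate 2. All 3 DNTCF4_EZH2 libraries were above all 3 DNTCF4_SET libraries for Tcf7l2 and below them for Apc, as were, in one direction or the other, the libraries of 31.8% of all genes tested.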

How the results depend on the processing

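Members called in DNTCF4_EZH2 against DNTCF4 numbered 3, 1 with the 6 compared libraries alone and 1 to 4 with a library left out, while further pathway genes numbered 9, 4 and 5 to 13. In DNTCF4_SET against DNTCF4, members called numbered 3 and 2 to 5 with a library left out, further pathway genes 13 and 10 to 21, and genes of all kinds 3914 and 2548 with 6 libraries. In DNTCF4_EZH2 against DNTCF4_SET, all genes called numbered 777, 2132 with 6 libraries and 374 to 460 with a library left out, members 2 and 0 to 1, and further pathway genes 3, 10 with 6 libraries and 0 to 1. Members called in DNTCF4_EZH2 against Vector numbered 8, and 4 to 8 with a library left out. Fewer libraries enter each of these fits, and calls fell in some of them and rose in others. The cause was not tested. The other totals, both directions together, lay within 1.5 times the reported ones. By direction, limma gave 0 higher and 2 lower further pathway genes in DNTCF4_EZH2 against DNTCF4_SET, against 3 and 0, and in DNTCF4_EZH2 against DNTCF4 the 4 lower ones were 2 with DESeq2, limma or the block.

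Samples with the same replicate number showed no visible shared deviation (correlations from -0.09 to 0.15, 1 of 18 pairs over 0.1). Pairs with different numbers ran from -0.17 to 0.15 (2 of 36 over 0.1). Whether samples of a number were handled together cannot be told from these values. With a replicate block, members called in DNTCF4_EZH2 against DNTCF4_SET numbered 1, without Tcf7l2 (adjusted p = 0.0538), and further pathway genes 1. The block also left Tcf7 short of the threshold in DNTCF4 (adjusted p = 0.05) and DNTCF4_EZH2 (adjusted p = 0.0509) against Vector and called Apc in DNTCF4 against Vector (adjusted p = 0.0376). All genes called numbered 638 in DNTCF4_EZH2 against DNTCF4_SET and 8584 in DNTCF4 against Vector.

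Signs turned for log2 fold changes near 0 that had not passed, and none of the turned values passed. With a library left out they ran from -0.01 to 0.05 for Axin1 in DNTCF4 against Vector. With EZH2, against DNTCF4, they ran from -0.09 to 0.17 for Tcf7l1, from -0.11 to 0.07 for Tcf7 and from -0.03 to 0.04 for Apc. In DNTCF4_SET against DNTCF4 they ran from -0.13 to 0.13 for Tcf7l1, from -0.13 to 0.04 for Tcf7 and from -0.02 to 0.03 for Gsk3b, from -0.02 to 0.11 for Tcf7 between the second constructs, and from 0 to 0.04 for Bcl9 in DNTCF4_SET against Vector. Tcf7 in DNTCF4_EZH2 against DNTCF4 was 0 with DESeq2, with its size factors and with no filter and 0.01 with limma, and Gsk3b in DNTCF4_SET against DNTCF4 was 0 with no filter. Depth limits Lef1, at 41 counts or fewer per group.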
